A study of Mus musculus with 6 samples.

Results

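Protocadherins form the largest family of cadherin-type adhesion proteins in vertebrates. They were described here in RNA of dissected mouse neocortex at E15.5, from 3 wild-type (WT) embryos and 3 heterozygous for Rest(+/deltaExon4), called Rest_het. The members were all protein-coding genes whose mouse symbol begins with Pcdh followed by a cluster letter or a number, which selected 69 of 48709 gene IDs in the count files. Of these, 57 lie in the alpha, beta and gamma gene clusters on chromosome 18 and 12 stand outside them as single genes. Pcdhgb8, annotated as a polymorphic pseudogene, was left out. All mice were C57BL/6, and each gave 1 library. The heterozygotes keep 1 unaltered Rest allele in every cell, and the labels give no Cre driver for the altered one. Nor do they give sex, litter or day of preparation.

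Protocadherins are transmembrane proteins with cadherin repeats that bind the same protein on a neighbouring cell. In the alpha and gamma clusters each gene is a large variable exon with its own promoter, spliced to constant exons that all genes of that cluster share, whereas beta genes use no constant exon. A neuron switches on a small and largely random set of the variable exons through looping by CTCF and cohesin, which gives it a surface identity used in dendrite self-avoidance and wiring. The non-clustered genes, sorted into delta1 and delta2 sub-families by their repeats and cytoplasmic motifs, are expressed by region and layer, and several are linked to autism or epilepsy. Rest encodes the zinc-finger repressor that holds neuronal genes silent outside neurons by binding RE1 elements.

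The 6 libraries held 17835117 to 20753653 gene reads, of which 5195 to 6868 were protocadherin reads. Rest itself had 440, 374 and 410 reads in the WT libraries 1, 2 and 3 and 309, 343 and 350 in the Rest_het libraries. The edgeR quasi-likelihood test gave a log2 fold change of -0.19 (adjusted p = 0.49), and a total over all exons does not check a deletion of exon 4. All 12 neocortical markers were detected, with sums of 1980 to 2259 CPM (counts scaled by library size) in WT and 1832 to 1972 in Rest_het libraries. Markers of Cajal-Retzius and subplate cells summed to 39.6 to 40.3 CPM in WT and 121.7 to 147.7 CPM in Rest_het, of which Tmem163, the list's 1 called gene, made up 1.67 to 1.91 and 79.9 to 90.2 CPM. Choroid plexus markers summed to 4.59 to 60.7 and 9.86 to 379.7 CPM, with all 7 tested above 0 and 0 called. Thalamus and hypothalamus markers summed to 850.1 to 1151 CPM in WT and 758.7 to 1019 CPM in Rest_het. Of the 8 tested, 6 were above 0 and 4 were higher at an unadjusted edgeR p under 0.05, with 0 lower and 0 called. Over all tested genes 6.98% were higher at that p. Of 8 tested meningeal and fibroblast markers 7 were above 0, with 0 called. No gene of these lists was at 0 throughout, and the part of such cells in the protocadherin values was not tested. LacZ reads occurred in WT libraries only (27, 51 and 43) and Cre-ERT2 reads in Rest_het libraries only (10, 16 and 17). The labels name neither sequence, and the part of these alleles in any difference cannot be told apart from that of Rest.

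How far the cluster genes can be measured depends on their exons. A read that falls in a constant exon belongs to all genes of its cluster and was counted for none of them, so the deposited counts describe the variable exons. Every alpha gene shared exon bases with 13 other members and every gamma gene with 20, while beta genes shared none except Pcdhb21 and Pcdhb22, which overlap each other. Antisense and read-through transcripts remove more: Pcdha4 kept 404 unshared bases of 5768 and Pcdhga10 kept 0 of 4732. Levels are therefore given as CPM, scaled by TMM (edgeR's trimmed mean of ratios), per kilobase of unshared exon for the 67 members with at least 500 unshared bases. Below, values that a gene "measured" are such levels in libraries 1, 2 and 3 of each group. Identical sequence between genes was a minor limit, since at most 7.62% of the 126-base stretches of a member's unshared exon (Pcdhgb2) occurred in another gene. Stretches that were similar but not identical were not counted. The plot of exon sharing shows these parts for each clustered gene.

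**Figure D1:**
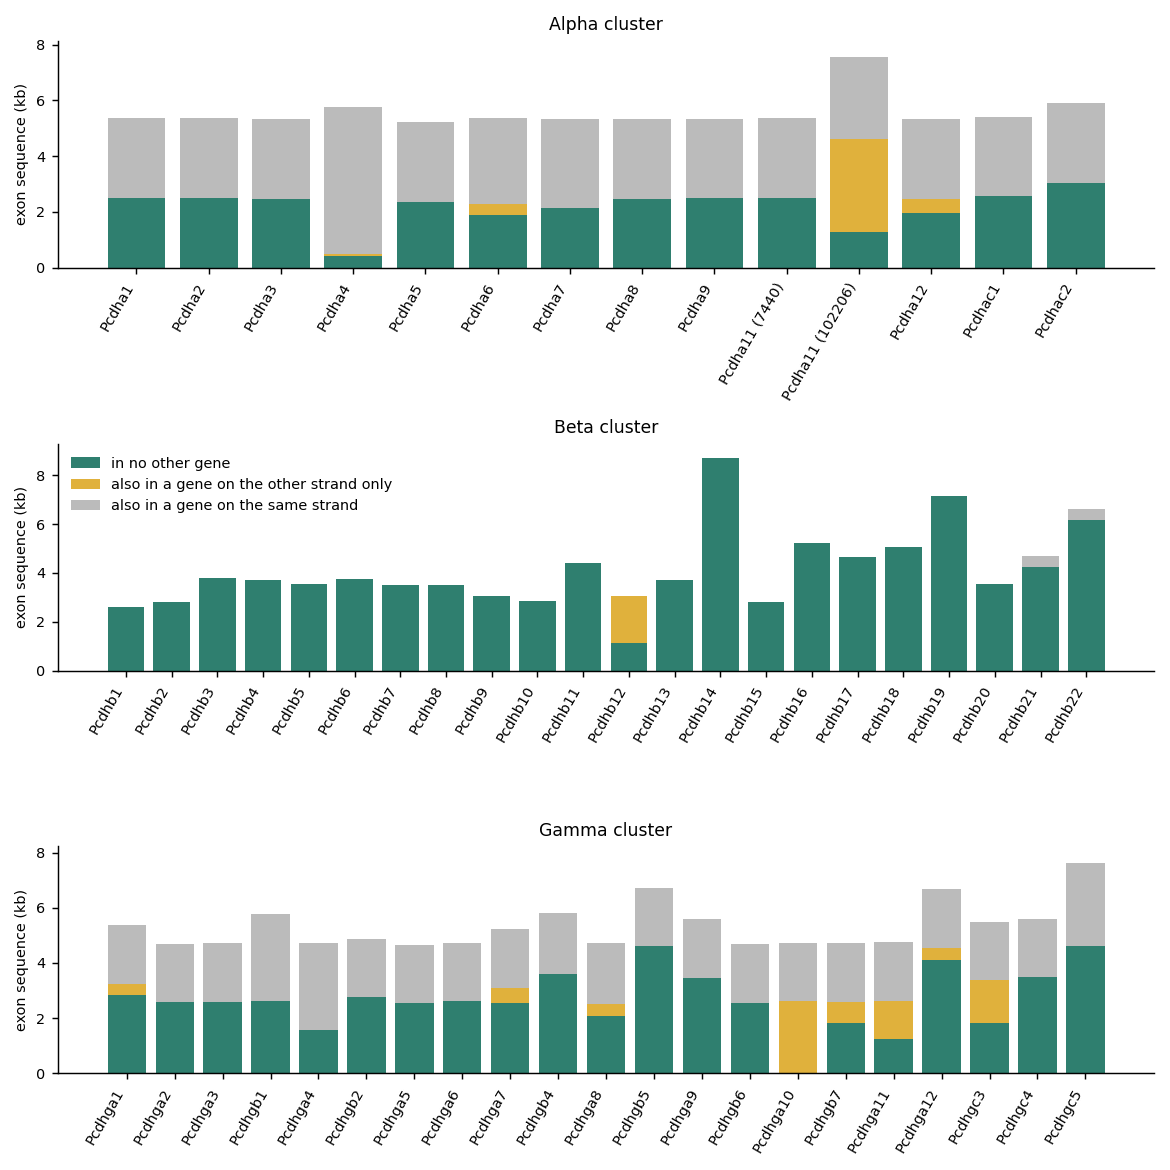
Exon sequence in kilobases of each clustered protocadherin in chromosome order, split into bases in no other gene (green), bases shared with a gene on the other strand only (yellow) and bases shared on the same strand (grey). Alpha and gamma genes lose their constant exons to sharing, beta genes other than Pcdhb12 keep most of their sequence, and Pcdhga10 has no green part.

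Between genotypes, no protocadherin rose or fell past the threshold. Of the 69 members 59 passed the filter on low counts, and 0 of 59 had an edgeR adjusted p under 0.05, against 0.123% of all 15385 genes tested (0.065% higher and 0.0585% lower). DESeq2 and limma-voom also called 0. The smallest adjusted p of a member was 0.36, for Pcdh9. The unadjusted edgeR p was under 0.05 in 3 of 59 members (5.08%): Pcdhb18 and Pcdh17 were higher and Pcdh9 was lower in Rest_het libraries. Over all tested genes that share was 11.7%, with 6.98% higher and 4.72% lower. The count was 1 without WT 2, 1 without Rest_het 1 and 6 without Rest_het 3. In bulk tissue, fewer cells of a type and less RNA per cell cannot be told apart.

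The groups did not overlap in 6 of 59 members (10.2%), against 19.3% of all tested genes. Rest_het values lay above WT values in Pcdha12, Pcdhb18, Pcdhgc4 and Pcdhgc5 (10.4% of all genes) and below them in Pcdhga6 and Pcdh9 (8.94% of all genes). The log2 fold change was above 0 in 33 of 59 members and in 50.9% of all tested genes. Its median was 0.07 over the members and 0.01 over all tested genes, and the former was -0.0020 without Rest_het 1 and 0.015 without Rest_het 3. The 95% interval of the fold change stayed within 2-fold in each direction for 28 of the 59 members and within 1.5-fold for 7, so for the other 31 a 2-fold change lay inside the interval. The median tested member had 37 reads per library, with 32 in the clusters and 148.5 outside them.

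**Figure D2:**
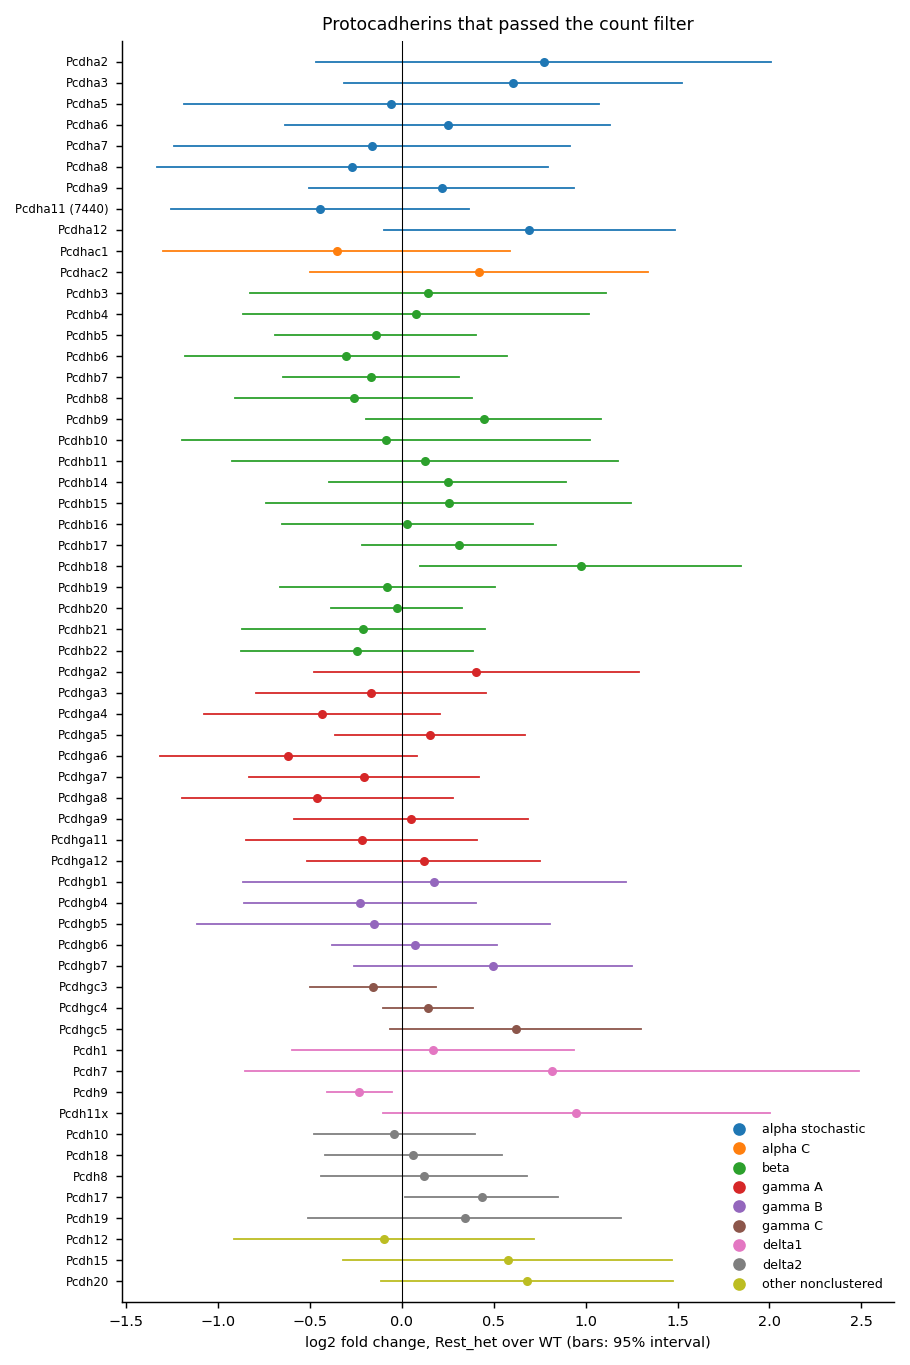
The log2 fold change of Rest_het over WT with its 95% interval for the 59 members that passed the count filter, coloured by sub-family. Most intervals cross 0, those of Pcdhb18, Pcdh17 and Pcdh9 do not, and Pcdh7 has the widest interval.

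In the alpha cluster, whose proteins are known to shape axon projections, 9 of 12 variable genes and both C-type genes passed the filter. The 14 alpha genes summed to 12.1 ± 1.39 CPM in WT libraries and 13.6 ± 2.59 CPM in Rest_het ones (SD, n = 3). Pcdha12, the last of the variable genes before the C-type pair, had the highest level in the cluster. It measured 0.811, 0.787 and 0.397 in the WT libraries and 0.973, 1.34 and 0.929 in the Rest_het libraries. The groups did not overlap, WT 3 was the lowest and Rest_het 2 the highest, and the log2 fold change of 0.69 (SE 0.34) had an edgeR unadjusted p of 0.0772 and an adjusted p of 0.46. Pcdha12 made up 12.7% ± 3.28 of the cluster's summed level in WT and 18.6% ± 1.67 in Rest_het libraries (SD, n = 3).

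Pcdha5 measured 0.835, 0.832 and 0.285 in WT and 0.576, 0.945 and 0.362 in Rest_het libraries. The third library of each group was the lowest of its group, and the groups overlapped (log2 fold change -0.06). Pcdha9 measured 0.482, 0.680 and 0.436 in WT and 0.784, 0.536 and 0.535 in Rest_het libraries, with a log2 fold change of 0.22 and overlapping groups. The median log2 fold change of the 9 variable alpha genes was 0.22, with values from -0.45 to 0.77. These genes had a median of 22 reads per library, and only 1 of the 9 had an interval within 2-fold in each direction.

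Below the filter were Pcdha1, with 0 to 4 reads per library, and Pcdha4, with 1 read in all. The alpha C-type genes are thought to be expressed by most neurons of a type rather than by random choice, and both were low. Pcdhac1 measured 0.486, 0.289 and 0.362 in WT and 0.169, 0.411 and 0.311 in Rest_het libraries. Pcdhac2, known for the tiling of serotonergic axons, measured 0.552, 0.226 and 0.272 in WT and 0.393, 0.586 and 0.439 in Rest_het libraries. In both genes the groups overlapped, and the log2 fold changes were -0.35 for Pcdhac1 and 0.42 for Pcdhac2. Together they made up 13.8% ± 3.75 of the summed alpha level (SD over 6 libraries).

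The symbol Pcdha11 stood for 2 gene IDs. ENSMUSG00000007440, which starts at position 37005203 of chromosome 18 (GRCm38) where RefSeq places Pcdha10, measured 0.440, 0.908 and 0.639 in WT and 0.584, 0.377 and 0.489 in Rest_het libraries. ENSMUSG00000102206, which starts at 37010712, had 3 reads in all, but its exons overlap the antisense gene Gm10545. Summing the 2 strand columns in place of the unstranded column gave it 195 reads. These libraries do not mark strand, so a read of the gene and one of its antisense partner cannot be told apart there.

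Beta genes use no constant exon, and all but Pcdhb12, Pcdhb21 and Pcdhb22 could be counted over their whole annotated exon length. Of the 22, 18 passed the filter, and all 22 summed to 44.6 ± 1.10 CPM in WT libraries and 45.9 ± 4.12 CPM in Rest_het ones (SD, n = 3). Pcdhb7, Pcdhb20 and Pcdhb9 had the highest levels and together made up 42.6% ± 4.29 of the summed beta level (SD over 6 libraries). Pcdhb7 measured 1.91, 2.73 and 1.71 in WT and 2.04, 1.66 and 1.94 in Rest_het libraries, with WT 2 alone above the rest. Pcdhb20 measured 1.53, 1.48 and 1.69 in WT and 1.52, 1.59 and 1.51 in Rest_het libraries. Its highest library stood 1.14 times above its lowest, the narrowest range of any protocadherin with reads in all libraries, and its 95% interval ran from 0.77-fold to 1.25-fold.

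Pcdhb9 measured 0.735, 1.23 and 1.35 in WT and 1.47, 1.83 and 1.20 in Rest_het libraries, with overlapping groups and a log2 fold change of 0.44 (SE 0.28, edgeR adjusted p = 0.54). Pcdhb18 was low, at 0.199, 0.188 and 0.112 in WT and 0.429, 0.209 and 0.348 in Rest_het libraries. All 3 Rest_het values lay above the WT values, Rest_het 2 narrowly so. Its log2 fold change of 0.97 (SE 0.38) was the largest of the 59 tested members, with an edgeR unadjusted p of 0.0331 and an adjusted p of 0.40. Those values rest on 11 to 40 reads per library. The median log2 fold change over the 18 tested beta genes was 0.00, with 9 above and 9 below 0.

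Pcdhb1, the gene nearest the start of the beta cluster, had 0 reads in all libraries, which allows up to 0.0261 CPM. Pcdhb2 and Pcdhb13 were below the filter too, with 0 to 5 and 1 to 7 reads per library. The other beta gene below the filter, Pcdhb12, had 2 to 7 reads in the unstranded column, where an antisense transcript covers most of its exon.

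The gamma cluster held the highest levels among the clustered genes. Its 21 members summed to 66.9, 66.6 and 66.7 CPM in the WT libraries and 67.1, 61.8 and 67.2 CPM in the Rest_het libraries. The WT sums differed by less than 1 CPM, and Rest_het 2 stood lower than the other 5. Gamma genes of the A type summed to 28.2 ± 1.08 CPM in WT libraries and 25.8 ± 1.27 CPM in Rest_het ones, and those of the B type to 9.16 ± 0.703 and 9.47 ± 0.686 CPM (SD, n = 3). C-type genes, of which Pcdhgc4 is known to be needed for survival of cortical interneurons, summed to 29.4 ± 1.04 and 30.2 ± 2.23 CPM (SD, n = 3).

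Pcdhgc3, the first C-type gene of the cluster, whose protein is known to bind Axin1 and dampen Wnt signalling, had the highest level of all clustered genes. It measured 8.14, 7.10 and 6.53 in WT and 7.54, 5.72 and 6.27 in Rest_het libraries, with overlapping groups and a log2 fold change of -0.16 (SE 0.15, edgeR adjusted p = 0.70). Its 95% interval ran from 0.71-fold to 1.14-fold. It made up 25.8% ± 2.55 of the summed gamma level (SD over 6 libraries). The antisense transcript BC037039 covers part of its exons, and with the strand columns summed its level was 10.2 in place of 6.88.

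Pcdhgc4 measured 4.30, 4.35 and 4.58 in WT and 4.76, 4.61 and 5.26 in Rest_het libraries. The groups did not overlap, but by a narrow margin, and the log2 fold change was 0.14 (SE 0.11, edgeR unadjusted p = 0.211, adjusted p = 0.61). Its share of the summed gamma level was 16.2% ± 0.799 in WT and 18.7% ± 1.03 in Rest_het libraries (SD, n = 3). Pcdhgc5, the last gene of the cluster and known to rise after birth, was much lower, at 0.176, 0.229 and 0.168 in WT and 0.317, 0.253 and 0.311 in Rest_het libraries. Its groups did not overlap either, and its log2 fold change of 0.62 (SE 0.30) had an edgeR unadjusted p of 0.0696 and an adjusted p of 0.45. The C-type genes together made up 44.1% ± 1.91 of the summed gamma level (SD over 6 libraries), against 13.8% in the alpha cluster.

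Among the A-type gamma genes, which with the B type are the randomly chosen ones, Pcdhga5 was the highest in the unstranded column. With the strand columns summed Pcdhga11 stood above it, at 2.63 against 2.30. Pcdhga5 measured 2.42, 1.70 and 2.41 in WT and 1.98, 2.26 and 3.03 in Rest_het libraries, with overlapping groups and a log2 fold change of 0.15. Pcdhga11 measured 2.09, 2.94 and 1.89 in WT and 2.19, 1.5 and 2.24 in Rest_het libraries, with a log2 fold change of -0.22. Pcdhga4 measured 1.07, 1.65 and 1.31 in WT and 0.998, 1.13 and 0.846 in Rest_het libraries. All of its Rest_het values but 1 lay below the WT values, and its log2 fold change of -0.43 (SE 0.28) had an edgeR adjusted p of 0.55.

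Pcdhga6 measured 1.08, 1.15 and 1.10 in WT and 0.517, 0.594 and 1.06 in Rest_het libraries. The groups did not overlap, but Rest_het 3 was close to the WT values, and the log2 fold change of -0.62 (SE 0.30) had an edgeR unadjusted p of 0.0768 and an adjusted p of 0.46. Pcdhga1 lies outside the naming rule and was chosen after its values were seen, because its groups did not overlap below the filter. It had 19, 16 and 8 reads in WT and 5, 3 and 4 in Rest_het libraries. With no filter on low counts it had a log2 fold change of -1.71 and an edgeR unadjusted p of 0.0081 and an adjusted p of 0.30. Of the 10 tested A-type genes 4 had a log2 fold change above 0 and 6 below, with a median of -0.19.

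B-type gamma genes were led by Pcdhgb6, at 1.23, 1.40 and 1.53 in WT and 1.37, 1.62 and 1.37 in Rest_het libraries. Pcdhgb7 measured 0.472, 0.897 and 0.508 in WT and 0.860, 0.851 and 0.932 in Rest_het libraries, with WT 2 inside the Rest_het range. Pcdhgb4 measured 0.546, 0.397 and 0.416 in WT and 0.437, 0.371 and 0.355 in Rest_het libraries. The groups overlapped in all 3 genes, and the log2 fold changes were 0.07 for Pcdhgb6, 0.50 for Pcdhgb7 and -0.23 for Pcdhgb4. Pcdhgb2, with 7 to 13 reads per library, was below the filter. Pcdhga10, with no unshared exon base, had 0 reads in the unstranded column. With the strand columns summed it had 15, 12 and 21 reads in WT and 12, 28 and 25 in Rest_het libraries, which include any reads of the antisense transcript Gm26672.

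**Figure D3:**
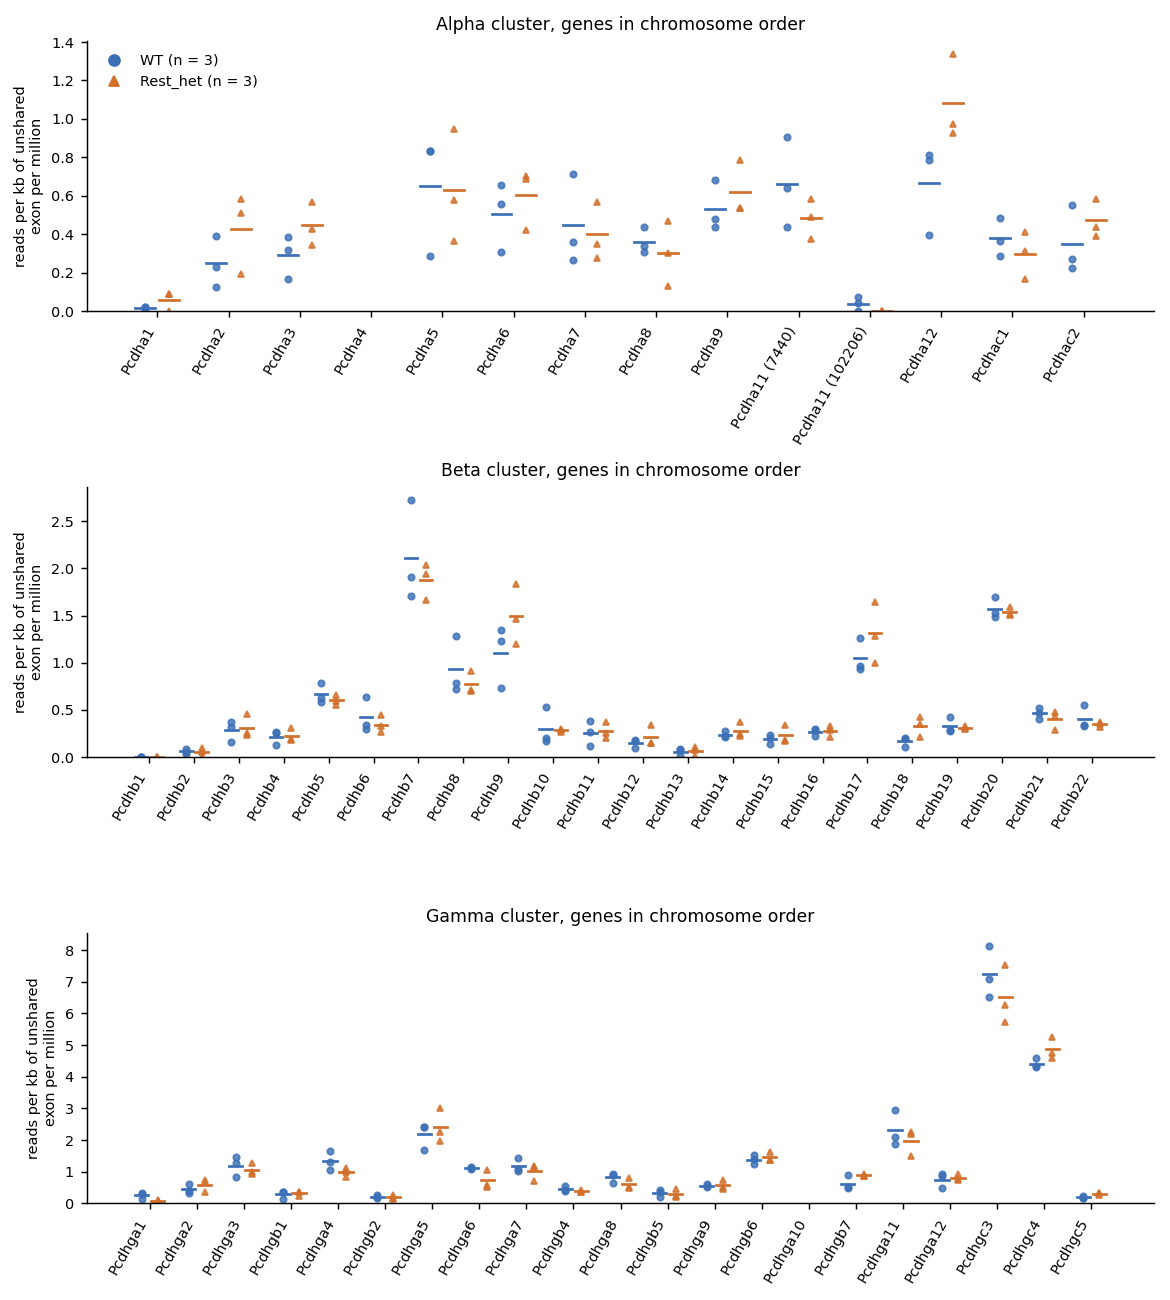
Level of each clustered protocadherin (CPM per kilobase of unshared exon) in each library, with genes in chromosome order, WT libraries as circles, Rest_het libraries as triangles and group means as bars. Pcdhgc3 and Pcdhgc4 stand above all other cluster genes, and the remaining genes spread from 0 to about the level of Pcdhga5.

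How evenly the genes of a cluster were used was described by an effective number of genes. This is the exponential of the Shannon entropy of the shares and equals the gene count if all are level. It was 10.3 ± 0.520 for the 14 alpha genes (SD over 6 libraries). For the 22 beta genes it was 14.1 ± 0.667, and for the 21 gamma genes 11.8 ± 0.428. Pcdha4 and Pcdhga10, without a level, entered as 0, and antisense overlap lowers others. The median reads per gene and library were 16.5 in the alpha, 32 in the beta and 34 in the gamma cluster. The 3 highest genes made up 37.8% of the summed alpha level, 42.6% of the beta and 51.9% of the gamma level. The order of genes was similar in both genotypes: Spearman's rho between the WT and Rest_het mean levels was 0.948 over 55 clustered genes, which share their libraries, scaling and exon lengths. Position along the chromosome and level had a rho of 0.327 over 11 variable alpha, 0.239 over 22 beta, 0.209 over 11 gamma A and 0.829 over 6 gamma B genes.

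Outside the clusters all 12 genes passed the filter, with 0 called. Their median log2 fold change was 0.26, with 9 above and 3 below 0, beside 0.03 over the 47 tested clustered genes. The delta1 genes Pcdh1, Pcdh7, Pcdh9 and Pcdh11x share a longer extracellular part and a cytoplasmic site for a protein phosphatase.

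Pcdh9, which is linked to autism and marks certain cortical layers and areas, had the highest level of all protocadherins in the unstranded column, but stood below Pcdhgc3 with the strand columns summed. It measured 9.0, 9.10 and 8.56 in WT and 7.36, 7.51 and 7.82 in Rest_het libraries. Every Rest_het value lay below every WT value, and the means were 8.88 ± 0.288 and 7.56 ± 0.236 (SD, n = 3). The log2 fold change was -0.23 (SE 0.08), with an edgeR unadjusted p of 0.0167 and an adjusted p of 0.36, and the 95% interval ran from 0.75-fold to 0.96-fold. Pcdh9 lies on the minus strand of chromosome 14 from 93013410 to 93890679 and rests on 919 to 1277 reads per library.

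Pcdh7, whose frog counterpart guides retinal axons, varied more between libraries than any other tested protocadherin. It measured 2.28, 2.24 and 10.3 in WT and 10.6, 13.1 and 2.35 in Rest_het libraries. WT 3, Rest_het 1 and Rest_het 2 stood far above the other 3, and each genotype held both kinds. Ordered by CPM plus 0.5, the third and the fourth library differed 4.28-fold, and 20 of 15385 tested genes (0.13%), Pcdh7 included, had a step that large there. The log2 fold change of 0.82 (SE 0.73) had an edgeR unadjusted p of 0.292 (adjusted p = 0.67) and a 95% interval from 0.55-fold to 5.61-fold. Without WT 3 the log2 fold change was 1.95 (edgeR adjusted p = 0.36). These values rest on 355 to 1983 reads in 8369 unshared of 10604 exon bases. The remaining bases overlap the antisense transcript 4932441J04Rik. With the strand columns summed, reads were 410, 373 and 1682 in WT and 1654, 2001 and 388 in Rest_het libraries. Unstranded, they were 399, 355 and 1671 in WT and 1643, 1983 and 371 in Rest_het libraries. The few reads gained were no more numerous in the 3 high libraries than in the others, so the split describes the unshared part.

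The span of Pcdh7 on the plus strand of chromosome 5, from 57717967 to 58133230, holds further annotated transcripts of unclassified type on the same strand. Gm42640 had 59, 37 and 345 reads in WT and 231, 205 and 40 in Rest_het libraries, and Gm42486 had 0, 3 and 123 in WT and 84, 43 and 4 in Rest_het libraries. Both were high in the same 3 libraries as Pcdh7. Gm42480 did not follow, with 183, 152 and 167 reads in WT and 140, 133 and 216 in Rest_het libraries, nor did Gm43715, Gm42639 and Gm37720. Pcdh7 lies 19.1 Mb from Rest on the same chromosome. Beside Pcdh7, the tested members whose 3 highest libraries were these were Pcdha2, Pcdha6, Pcdhb9, Pcdhga2 and Pcdh11x. Counted with Pcdh7, which set the pattern and so had to match, that makes 6 of 59 (10.2%), beside 6.58% of all tested genes. None of the marker lists for other cell types had its 3 highest sums in those libraries. Such a sum can be led by a single gene, as by Tmem163 above, so its order cannot show where other cells were present. The part of other cell types in the Pcdh7 split was not tested.

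**Figure D4:**
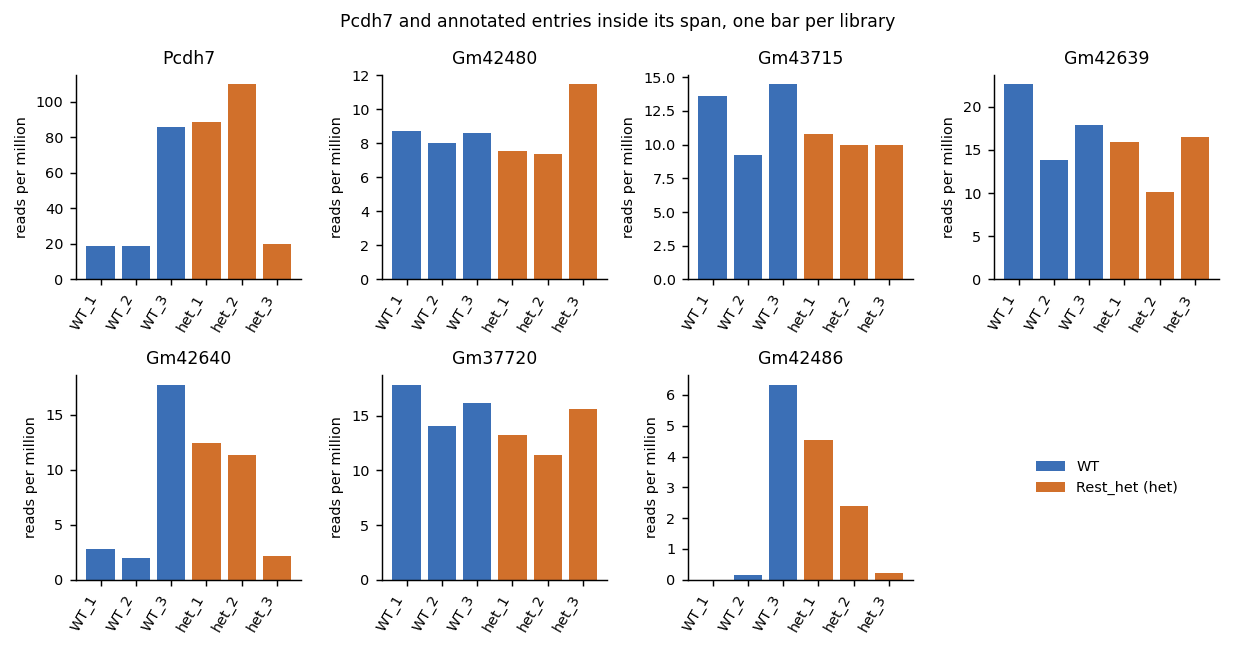
Signal in CPM of Pcdh7 and of the 6 best covered annotated transcripts inside its span, 1 bar per library, each panel on its own axis from 0. Pcdh7, Gm42640 and Gm42486 are high in WT 3, Rest_het 1 and Rest_het 2, and the other 4 transcripts are not.

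Pcdh11x, an X-linked gene, measured 0.295, 0.208 and 0.403 in WT and 0.411, 1.04 and 0.305 in Rest_het libraries. Rest_het 2 alone was high, and the log2 fold change of 0.95 (SE 0.46) had an edgeR unadjusted p of 0.0714 and an adjusted p of 0.45. Without Rest_het 2 the log2 fold change was 0.25. The same library had the highest summed signal of 12 markers of the ventral telencephalon and its interneurons, at 558.5 CPM against 210.8 to 368.7 CPM in the other 5. Between genotypes, 9 of 11 tested markers of this list had a log2 fold change above 0, and 0 were called. The sums of Rest_het 1 and Rest_het 3, at 262 and 307.5 CPM, lay inside the WT range. The part of such cells in the Pcdh11x value was not tested. Pcdh1, best known from epithelia, was low, at 0.109, 0.168 and 0.140 in WT and 0.209, 0.139 and 0.121 in Rest_het libraries, with overlapping groups and a log2 fold change of 0.17.

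The delta2 genes, several of which recruit the WAVE complex that builds actin networks, summed to 66.4 ± 5.58 CPM in WT libraries and 73.2 ± 5.72 CPM in Rest_het ones (SD, n = 3). Pcdh17, known for a role in axon extension and synaptic vesicle clusters, measured 0.824, 0.739 and 0.785 in WT and 1.03, 1.33 and 0.822 in Rest_het libraries. Rest_het 3 lay inside the WT range, and the log2 fold change of 0.43 (SE 0.18) had an edgeR unadjusted p of 0.0423 and an adjusted p of 0.42. Pcdh18 was the highest of the sub-family, at 2.86, 1.96 and 3.33 in WT and 3.08, 2.30 and 3.13 in Rest_het libraries. Its second library was the lowest in each group, and its log2 fold change was 0.06.

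Pcdh10, known to steer axons of the ventral forebrain, measured 1.90, 1.20 and 1.86 in WT and 1.54, 1.89 and 1.39 in Rest_het libraries, with a log2 fold change of -0.04 and a 95% interval from 0.72-fold to 1.32-fold. Pcdh8, an activity-induced gene that removes N-cadherin from synapses, measured 1.01, 1.47 and 1.12 in WT and 1.29, 1.65 and 0.971 in Rest_het libraries (log2 fold change 0.12). In both genes the groups overlapped.

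Pcdh19, an X-linked gene whose loss causes epilepsy when cells with and without it are mixed, measured 0.877, 1.43 and 0.777 in WT and 0.727, 1.17 and 2.02 in Rest_het libraries. Its log2 fold change was 0.34 (SE 0.37, edgeR adjusted p = 0.74). The highest library of each group, WT 2 and Rest_het 3, was the one with Xist reads, 764 and 778, while the other 4 libraries had at most 1. For Pcdh11x these 2 libraries were instead the lowest of their groups, at 0.208 in WT 2 and 0.305 in Rest_het 3. Whether either gene goes with the Xist reads was not tested.

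The remaining non-clustered genes were Pcdh20, Pcdh12 and Pcdh15, the last of which had the lowest level of the 12. Pcdh20 measured 0.609, 0.346 and 0.375 in WT and 1.03, 0.605 and 0.503 in Rest_het libraries. WT 1 lay inside the Rest_het range, and the log2 fold change of 0.68 (SE 0.35) had an edgeR unadjusted p of 0.0832 and an adjusted p of 0.47. Pcdh12, an endothelial protocadherin, measured 0.481, 0.270 and 0.323 in WT and 0.339, 0.210 and 0.456 in Rest_het libraries. Its log2 fold change of -0.10 stood beside summed endothelial and mural markers of 218.5 to 340.2 CPM in WT libraries and 324.9 to 1548 CPM in Rest_het ones, of which Rgs5 made up 152 to 216 CPM in WT libraries and 196 to 1432 CPM in Rest_het ones. Pcdh15, a component of the hair-cell tip link whose loss causes deafness, measured 0.0342, 0.0577 and 0.0412 in WT and 0.0978, 0.0443 and 0.0559 in Rest_het libraries, with 17 to 43 reads per library, overlapping groups and a log2 fold change of 0.58.

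**Figure D5:**
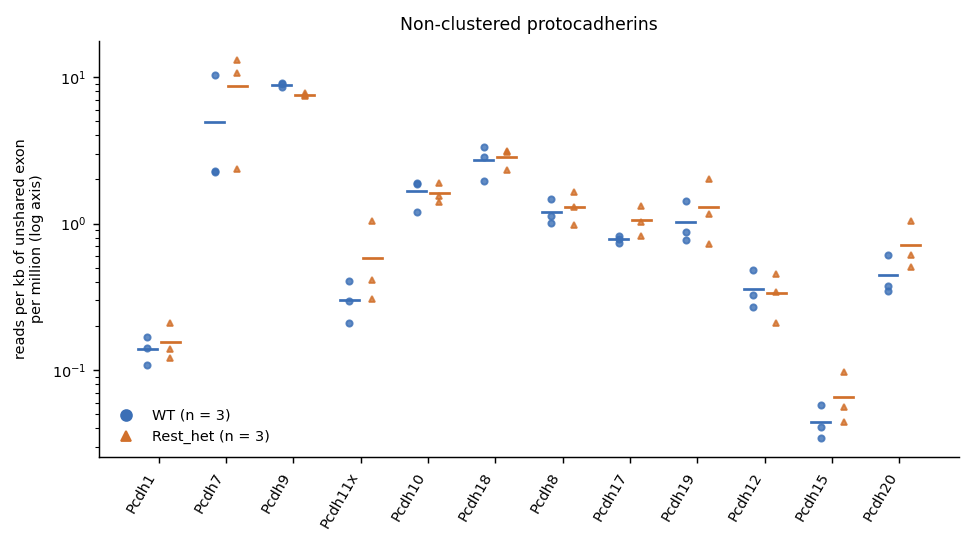
Level of the 12 non-clustered protocadherins (CPM per kilobase of unshared exon, log axis) in each library, WT as circles, Rest_het as triangles and group means as bars. The Pcdh9 groups are tight and apart, Pcdh7 splits into high and low libraries within both genotypes, and Pcdh15 is lowest.

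Over the 67 members with a level, the means in the unstranded column ran from Pcdh9 (8.22) through Pcdhgc3 (6.88), Pcdh7 (6.82) and Pcdhgc4 (4.64) to Pcdh18 (2.78), Pcdhga5 (2.30), Pcdhga11 (2.14) and Pcdhb7 (2.0). Neighbours in this order mostly overlapped: Pcdh9 and Pcdhgc3 shared part of their ranges over the 6 libraries, as did Pcdh18 and Pcdhga5, and the range of Pcdh7 overlapped that of each of them. Every Pcdhgc4 value lay below every Pcdhgc3 value and above every Pcdh18 value. With the strand columns summed, and levels taken per kilobase of exon not shared on the same strand, the order began with Pcdhgc3 (10.2), Pcdh9 (8.22), Pcdh7 (5.45), Pcdhgc4 (4.64) and Pcdh18 (2.78), followed by Pcdhga11 (2.63) ahead of Pcdhga5 (2.30).

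Promoter sequence is shown for the non-clustered genes with the largest spread between libraries (Pcdh7) and the smallest unadjusted p (Pcdh9 and Pcdh17). The bases, from RefSeq on GRCm38.p6, end just before the gene start in the GENCODE annotation and run 5′ to 3′ along the gene's strand, with CCAAT and GGGCGG, or their reverse complements, in capitals.
Pcdh7 promoter, chr5:57717831-57717966, plus strand: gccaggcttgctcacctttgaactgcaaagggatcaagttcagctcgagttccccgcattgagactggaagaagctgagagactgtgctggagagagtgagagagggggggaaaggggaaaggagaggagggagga
Pcdh9 promoter, chr14:93890680-93890929, minus strand: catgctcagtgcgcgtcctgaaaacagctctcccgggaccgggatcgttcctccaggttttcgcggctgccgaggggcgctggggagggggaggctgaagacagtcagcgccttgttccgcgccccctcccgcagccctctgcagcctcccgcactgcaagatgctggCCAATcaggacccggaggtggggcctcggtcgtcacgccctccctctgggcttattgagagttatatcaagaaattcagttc
Pcdh17 promoter, chr14:84443313-84443562, plus strand: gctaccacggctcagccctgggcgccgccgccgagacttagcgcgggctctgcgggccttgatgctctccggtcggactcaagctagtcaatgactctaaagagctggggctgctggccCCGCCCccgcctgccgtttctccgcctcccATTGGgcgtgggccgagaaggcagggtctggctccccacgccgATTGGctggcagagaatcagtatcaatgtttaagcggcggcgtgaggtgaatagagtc
Over 300-base windows around the RefSeq starts of 9 non-clustered genes, CCAAT on either strand occurred in 8 and GGGCGG in 4, against 37.4% and 35.7% of all 32851 windows. Pcdh7 was the window without CCAAT. The left and right parts of the RE1 element, CAGCACC and GGACAGC, occurred on either strand in 0 of the 9 windows and in 7.14% and 6.56% of all windows. Such a match or its lack describes these letters in these windows only. The TATA box TATAAA occurred in the windows of Pcdh8 and Pcdh15, beside 13.6% of all windows. GC content ran from 43.7% in Pcdh20 to 67.7% in Pcdh19, with a median of 52.7% over all windows.

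The genes that act with protocadherins gave 0 calls in each list. Of 24 tested genes for promoter choice and chromatin of the clusters, 5 had a log2 fold change above 0 and the median was -0.12, beside 0.01 over all tested genes. Ctcf, whose protein joins cluster promoters to their enhancers, measured 38.8, 46.4 and 59.4 CPM in WT libraries and 64.4, 63.3 and 64.0 CPM in Rest_het ones. WT 3 was close to the Rest_het values, and the log2 fold change of 0.41 (SE 0.15) had an edgeR adjusted p of 0.37. The cohesin subunits Smc1a and Stag2 had log2 fold changes of -0.24 (adjusted p = 0.36) and -0.25 (adjusted p = 0.42, edgeR).

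Of 25 tested intracellular partners 15 were above 0, with a median of 0.02. Those with the smallest p were Taok2 (log2 fold change 0.38), a kinase bound by Pcdh8, Wasf2 (0.50), a WAVE subunit, and Rac1 (0.59), the GTPase that activates it, with edgeR adjusted p from 0.35 to 0.37. Axin1, the partner of Pcdhgc3 named above, had -0.26 (edgeR adjusted p = 0.41). Among 11 tested genes for other large cadherins 6 were above 0, with a median of 0.06, and Celsr3, an atypical cadherin for axon tracts, had -0.61 (edgeR adjusted p = 0.32). Of 21 tested classical cadherins and catenins 10 were above 0, with a median of -0.02.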

How the data were processed

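RNA was measured in 6 neocortex libraries, 3 WT and 3 Rest_het, grouped by the genotype in the labels. Oligo dT-primed cDNA had 12 PCR cycles, was tagmented and read as pairs of 126 bases, per the labels, without strand or molecular identifiers, so zero limits cover counting error only. The authors deposited read counts per gene, of which the unstranded column was used. The submitters' processing notes name STAR 2.5.2a and GRCm38.p4. A deposited table of normalized signal, for which the same notes name DESeq2, served as an alternative. Of all read pairs 1.21 to 1.45% did not map, 2.54 to 2.85% were ambiguous, 21.4 to 26.9% lay outside genes and 6.29 to 7.48% were multimapping, and all of these stayed out.

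Symbols and exons came from GENCODE M21 (GRCm38), which matched 48349 of 48709 gene IDs and 67 of 69 members with the same version. The authors' annotation release is not given in the sources used here. All genes were fitted with edgeR 4.0.16 (R 4.3.3), TMM scaling, filterByExpr (minimum 10 reads, total 15) and calls at a Benjamini-Hochberg adjusted p under 0.05. SE is the log2 fold change over the root of F, and 95% intervals use the t quantile of that fit. The biological coefficient of variation was 0.183. A count of 0 allows 3 reads. Counts across libraries exceeded sampling noise for every pair. The chi-square per degree of freedom was 23.8 to 32.5 among WT 2, WT 3 and Rest_het 1. Among WT 1, Rest_het 2 and Rest_het 3 it was 26.2 to 54.8, and between these sets 78.5 to 117.8. The fit does not model this split across genotypes, and its source was not tested. P-values measure the spread between these libraries, each from 1 mouse, with the split in it.

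Alternatives were DESeq2 1.42.0, limma-voom and limma 3.58.1 on log2 of the deposited values plus 1, other scaling and filters, the summed strand columns, the replicate number as a block and each library left out. Figures used matplotlib 3.10.9. The members and gene lists were chosen with earlier results of these data known. Values by library are given for the 10 members with the smallest p, the 3 highest per sub-family and all non-clustered members; of each list, up to 3 genes with the smallest p, part of which is printed.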

Additional observations from a re-analysis of the deposited data

Results flagged for a closer look

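Outside the genes tested, the count files list transgene sequences. Cre-ERT2 had 43 reads over the 3 Rest_het libraries (10, 16 and 17) and 0 over the 3 WT libraries, which allows up to 0.0494 CPM. This stood out because it is a signal above that of the control libraries in rows that no comparison of the protocadherins uses. LacZ showed the opposite, with 121 reads over the WT libraries and 0 over the Rest_het libraries. The source of these reads was not tested.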

How the results depend on the processing

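No alternative called a protocadherin, and none of 464 alternative values for the 31 named members passed the threshold. The number of all genes called was 19, but 127 with DESeq2, 107 with no filter, 6 with the replicate block and 12 to 35 with a library left out (12 without WT 1, 35 without WT 2, 32 without Rest_het 3). Members at an unadjusted p under 0.05 numbered 3, but 6 with no filter, 5 with the strand columns summed, 2 with the replicate block and 1 to 6 with a library left out. Their median log2 fold change was 0.07, and -0.0020 to 0.11 with a library left out. Direction turned in 12 of the 31. With a library left out the log2 fold change ran from -0.47 to 0.22 for Pcdha5, -0.30 to 0.056 for Pcdhb7, -0.068 to 0.030 for Pcdhb20, -0.035 to 0.28 for Pcdhga5 and -0.012 to 0.14 for Pcdhgb6. Outside the clusters it ran from -0.098 to 0.33 for Pcdh1, -0.22 to 0.073 for Pcdh10, -0.12 to 0.24 for Pcdh18, -0.078 to 0.30 for Pcdh8, -0.12 to 0.66 for Pcdh19 and -0.38 to 0.18 for Pcdh12. With the strand columns summed the log2 fold change of Pcdhga11 was 0.050 and the Pcdhgc3 share 32.5%, since antisense overlap is then counted. The median level of the 59 tested members was 0.573 per unshared and 0.347 per full exon length, as the longer length is the divisor. Otherwise the cause was not tested. The same-numbered libraries of the 2 groups correlated at 0.011, 0.037 and -0.144, so the number was not used as a pair. Depth limits the alpha genes most, at a median of 22 reads per library.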

Other observations

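A few genes inside the clusters that are not protocadherins had more reads than the median tested cluster gene. Taf7, a subunit of the general transcription factor TFIID, lies between the beta and gamma clusters and had 928, 777 and 833 reads in WT and 725, 816 and 733 in Rest_het libraries. Slc25a2, an ornithine carrier of mitochondria, lies beside it and had 118, 106 and 112 reads in WT and 69, 135 and 108 in Rest_het libraries. Gm10544, inside the alpha cluster, had 73 to 109 reads per library. The read-through genes Gm42416, Gm37013 and Gm37388, annotated from the alpha into the gamma cluster, had 0 reads in all 6 libraries, but all of their exon bases are shared with other genes.

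The unshared counts of the gamma cluster gave nearly the same sum in the 3 WT libraries. Single tested genes in it differed up to 2.86-fold over all 6 libraries (Pcdhgb1). The 2 ranges are not alike, since the sum rests on 1263 to 1399 reads per WT library and Pcdhgb1 on 7 to 18 reads per library.

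Of 32 tested genes listed as known REST targets, 13 had a log2 fold change above 0, with a median of -0.05. At an unadjusted edgeR p under 0.05, 1 was higher and 9 were lower, beside 6.98% and 4.72% of all tested genes, and 0 were called. That list is a chosen set without protocadherins, so it does not show whether any of them is a REST target.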
